A study of Vulpes vulpes with 8 samples.

Results

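In fox gum, 10 genes of the transforming growth factor beta (TGF-beta) system were read: the ligands TGFB1, TGFB2 and TGFB3, the activin subunit INHBA, the ligand activator THBS1, the receptors TGFBR1 and TGFBR2, and the fibrosis genes CCN2, TGFBI and POSTN. They were chosen by name, as all probe sets that the platform annotation gives one of these symbols alone. That gave 21 probe sets for the 10 genes, of 42924 non-control probe sets on the array, and 18 of the 21 passed the filter on low signal. Of the other 3, both dimmer TGFB3 probe sets and the dimmer CCN2 probe set, only levels are given. Each of the 10 genes kept at least 1 tested probe set, and the one with the highest mean signal leads its gene here.

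The samples were gingiva of 8 red foxes (Vulpes vulpes), 1 array per fox, from 5 animals with hereditary hyperplastic gingivitis (HHG), in which the gum overgrows in an inherited way, and 3 unaffected animals. The affected foxes were 19, 55 and 107 (males) and 381 and 757 (females), and the unaffected foxes were 86 and 97 (males) and 402 (female). No treatment, genotype or age is given in the labels, and diagnosis rested on early signs, red and granular raised gum at the tooth margin. Gum was cut either at pelting, from euthanised foxes, or in late spring, from foxes alive under anaesthesia, and the labels do not say which fox was sampled when. The array was designed for the dog.

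TGF-beta ligands are secreted in a latent form and stored in the matrix until integrins, proteases or thrombospondin-1 release them. The active ligand binds the type II receptor TGFBR2, which switches on the type I receptor TGFBR1, and SMAD2 and SMAD3 then carry the signal to the nucleus. In gum and other connective tissue this pathway is known for driving fibroblasts to make collagen and matrix proteins, and in epithelium for restraining growth.

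Values are linear array signals, and differences are affected minus unaffected on the scale of log2(signal + 16), from a limma fit over all 25754 tested probe sets with Benjamini-Hochberg adjustment. The median signal of an array was 28.6 to 33.7, and 63.4% to 74.7% of probe sets lay above the background read from bacterial control probe sets. The beta-actin control probe sets split the arrays: the 5′ probe set read 7831 to 8868 in affected foxes 107 and 757 and unaffected foxes 86 and 97, and 1354 to 2336 in affected foxes 19, 55 and 381 and unaffected fox 402. The 3′ probe set read 12688 to 14956 in the foxes of high and 7585 to 9722 in those of low 5′ actin. The sets were drawn by the log2 ratio of 5′ to 3′ signal. That ratio was -0.77 to -0.58 in the set of high and -2.84 to -1.83 in that of low 5′ actin. Both sets hold affected and unaffected foxes, so the difference was also computed within each. Of the epithelial markers 11 of 16 were named on the array and 9 of those lay above background in all 8 foxes, and of the fibroblast markers 11 of 12 did. Their summed signals differed widely between pieces of gum: 26835 to 50604 in affected, against 19640 to 57726 in unaffected foxes for epithelium, and 14463 to 33772 in affected, against 11201 to 37452 in unaffected foxes for fibroblasts. In whole tissue, fewer cells of a type and less RNA per cell cannot be told apart.

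THBS1 was the member with the highest affected-to-unaffected difference. On its 2 brighter probe sets affected foxes 19, 55 and 381, those of low 5′ actin, stood highest. Of the 18 probe sets, 0 passed an adjusted p of 0.05 in limma (adjusted p = 0.9999 for each), and 0% of all tested probe sets did in either direction. At an unadjusted p under 0.05, 2 of the 18 were higher and 0 lower, where 1.16% and 1.53% of all tested probe sets were (2.69% in either direction), and both were THBS1 probe sets. In 0 of the 18 did the groups separate fully, which was seen higher in affected foxes in 0.916% and lower in 1.52% of all tested probe sets. The median difference was -0.066 over the 18 and -0.037 over all tested probe sets, with 6 of the 18 higher in mean and 12 lower, where 43.5% of all tested probe sets were higher. The 95% interval of a member's difference reached a median of 0.72 to each side.

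**Figure D1:**
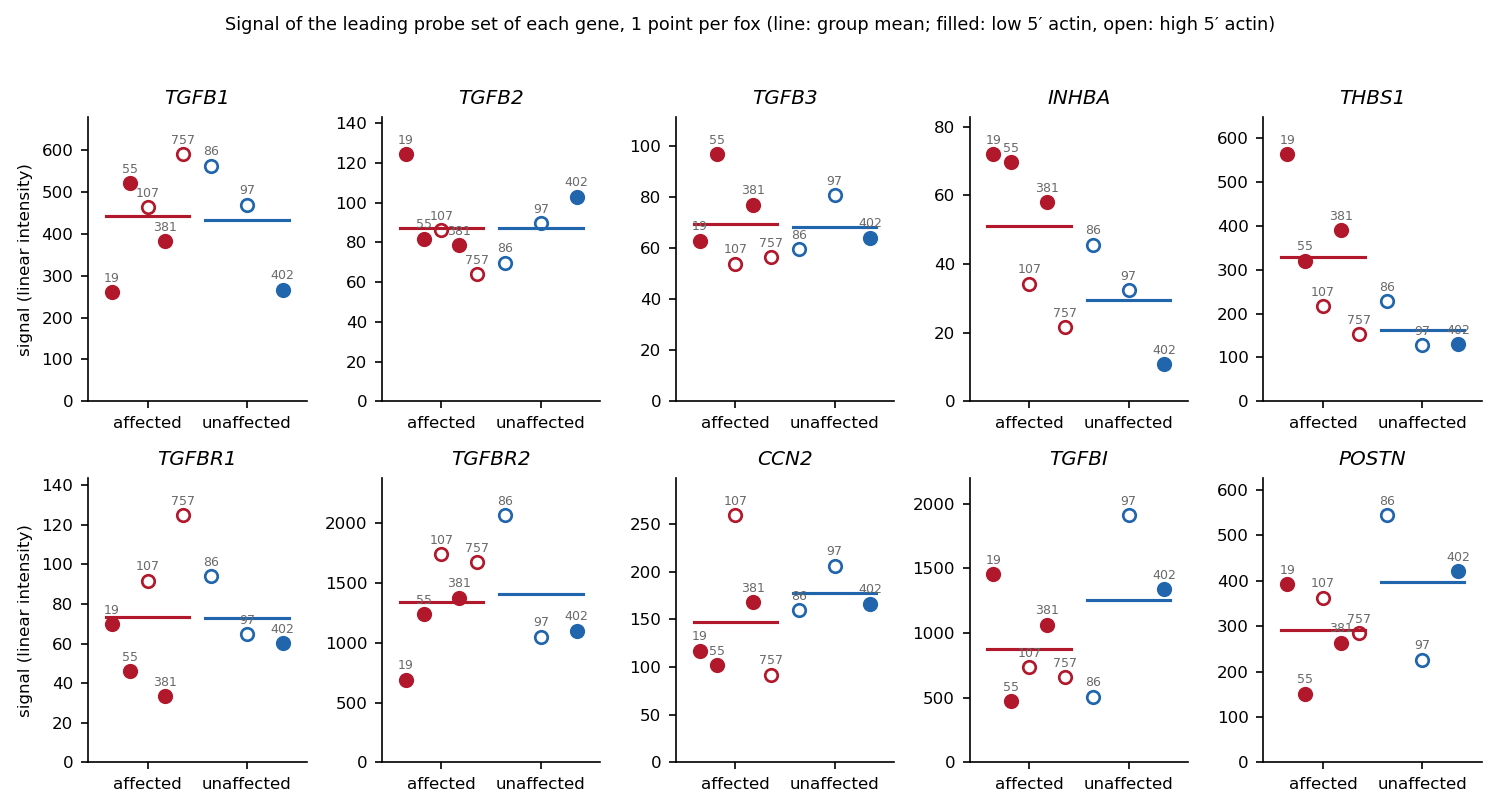
Signal (linear intensity, y axis from 0) of the leading probe set of each of the 10 genes, with affected foxes left and unaffected foxes right, 1 numbered point per fox, the line at the group mean, filled points for low and open points for high 5′ actin. Affected foxes 19, 381 and 55 stand highest for THBS1 and INHBA, while the groups overlap in all 10 genes.

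The ligands come first. TGFB1, the isoform that dominates in blood platelets and many immune cells, read 261, 521, 463, 382 and 591 in affected foxes 19, 55, 107, 381 and 757, against 563, 470 and 266 in unaffected foxes 86, 97 and 402. Each group held 1 low fox, affected fox 19 and unaffected fox 402, and the ranges lay over each other. The means were 444 ± 128 in affected against 433 ± 152 in unaffected foxes (mean ± SD, n = 5 and n = 3), a difference of 0.046 ± 0.30 (SE). Leaving out 1 fox at a time turned its direction, from -0.26 without unaffected fox 402 to 0.26 without unaffected fox 86. Within the foxes of high 5′ actin the TGFB1 difference was 0.024, and within those of low 5′ actin 0.47.

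TGFB2, an isoform known from development and from epithelial and mesenchymal cells, read 124, 81.8, 86.1, 78.6 and 64.1 in affected foxes 19, 55, 107, 381 and 757, against 69.7, 89.6 and 103 in unaffected foxes 86, 97 and 402. Affected foxes held both the highest and the lowest value. The difference was -0.018 ± 0.21 (SE), at -0.073 and -0.13 within the foxes of high and low 5′ actin. The second TGFB2 probe set was dimmer, at 25.4 to 29.6 in affected, against 23.5 to 38.7 in unaffected foxes, and differed by -0.11 ± 0.16 (SE). The order of the foxes was not shared between the 2 probe sets.

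TGFB3, known for its part in palate fusion, read 62.9, 97.0, 54.0, 77.1 and 56.6 in affected foxes 19, 55, 107, 381 and 757, against 59.8, 80.9 and 64.1 in unaffected foxes 86, 97 and 402. The unaffected foxes lay inside the affected range, and the difference was 0.0063 ± 0.20 (SE), the smallest of the 10 genes. Of the untested TGFB3 probe sets, 1 read 5.84 to 20.4 in affected, against 12.2 to 18.3 in unaffected foxes, with 2 affected foxes at background, and the other was at background in all 8 foxes.

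INHBA encodes the beta A subunit of activin A, a TGF-beta family ligand that signals through its own receptors to SMAD2 and SMAD3. It read 72.1, 69.6, 34.2, 58.0 and 21.5 in affected foxes 19, 55, 107, 381 and 757, against 45.6, 32.5 and 10.9 in unaffected foxes 86, 97 and 402. Affected foxes 19, 55 and 381 lay above all unaffected foxes, and affected foxes 107 and 757 lay among them. The means were 51.1 ± 22.3 in affected against 29.6 ± 17.5 in unaffected foxes (mean ± SD, n = 5 and n = 3), a difference of 0.56 ± 0.35 (SE; limma unadjusted p = 0.138, adjusted p = 0.9999). That difference was -0.33 within the foxes of high 5′ actin and 1.62 within those of low 5′ actin, where the 1 unaffected fox, 402, held the lowest INHBA signal of all. Without unaffected fox 402 it was 0.22, and with the actin ratio as a covariate 0.38.

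THBS1, thrombospondin-1, is a matrix protein of platelets, fibroblasts and macrophages that binds the latent complex and releases active TGF-beta. Its leading probe set read 564, 321, 217, 390 and 154 in affected foxes 19, 55, 107, 381 and 757, against 228, 127 and 130.5 in unaffected foxes 86, 97 and 402. The second read 437, 287, 213, 387 and 147 in affected foxes 19, 55, 107, 381 and 757, against 169, 138 and 126 in unaffected foxes 86, 97 and 402. In both probe sets affected foxes 19, 55 and 381 lay above all unaffected foxes and affected fox 757 lay among them, while affected fox 107 lay above all unaffected foxes only in the second.

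The leading THBS1 probe set averaged 329 ± 160 in affected against 162 ± 57.1 in unaffected foxes (mean ± SD, n = 5 and n = 3), a difference of 0.87 ± 0.38 (SE; limma unadjusted p = 0.0435, adjusted p = 0.9999). The second averaged 294 ± 120 in affected against 144 ± 22.2 in unaffected foxes (mean ± SD, n = 5 and n = 3), a difference of 0.87 ± 0.32 (SE; limma unadjusted p = 0.0219, adjusted p = 0.9999). By a two-sided exact permutation test over the 56 splits of the foxes, p was 0.107 for the first and 0.0714 for the second, where the smallest possible is 0.0179. The dimmest THBS1 probe set read 11.4 to 23.8 in affected, against 9.63 to 30.6 in unaffected foxes and differed by -0.060. Over the fits that each left out 1 fox, the difference ran from 0.65 to 1.12 for the leading and from 0.71 to 1.08 for the second probe set.

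The THBS1 difference of the 2 brighter probe sets had 1 direction in both actin sets. It was larger in the set of low 5′ actin, which held 1 unaffected fox. Within the foxes of low 5′ actin it was 1.55 and 1.43 for the 2 brighter probe sets, and within those of high 5′ actin 0.088 and 0.19. Affected foxes of low 5′ actin read 321 to 564 on the leading probe set, and affected foxes 107 and 757, of high 5′ actin, 217 and 154, while the 1 unaffected fox of low 5′ actin read 130.5 and the 2 of high 5′ actin 127 and 228. With the actin ratio as a covariate the differences were 0.60 and 0.62. The part of the actin split in this result was not tested. Macrophage markers had higher means in affected foxes in 6 of 7 tested genes, where 43.5% of all tested probe sets were higher. At an unadjusted p under 0.05, 1 of the 7 was higher, against 1.16% of all tested probe sets. That was CD68, a lysosomal protein of macrophages, at 344 ± 38.0 in affected against 179 ± 109 in unaffected foxes (mean ± SD, n = 5 and n = 3; difference 1.07, limma unadjusted p = 0.0119). The CD68 groups did not overlap, as in 0.916% of all tested probe sets with affected foxes higher. Its difference was 1.24 and 0.80 within the foxes of high and low 5′ actin. Without unaffected fox 97 it was 0.55, and on the other tested CD68 probe set 0.31. The scavenger receptor CD163 differed by 0.65, and by 0.082 and 0.31 on its 2 other tested probe sets. Both genes were singled out after their values were seen. AIF1 was the 1 marker that went the other way, at -0.10. The macrophage markers had summed signals of 848 to 1663 in affected, against 585 to 1751 in unaffected foxes, and their sum correlated with THBS1 at a Pearson r of 0.18 (n = 8 foxes, each read on 1 array for both measures). Platelet markers, of which 5 of 7 were named on the array and 4 of those lay above background in all foxes, summed to 211 to 304 in affected, against 231 to 292 in unaffected foxes, and affected fox 19, highest for THBS1, was the lowest for them. The part of either cell type in the THBS1 result was not tested.

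**Figure D2:**
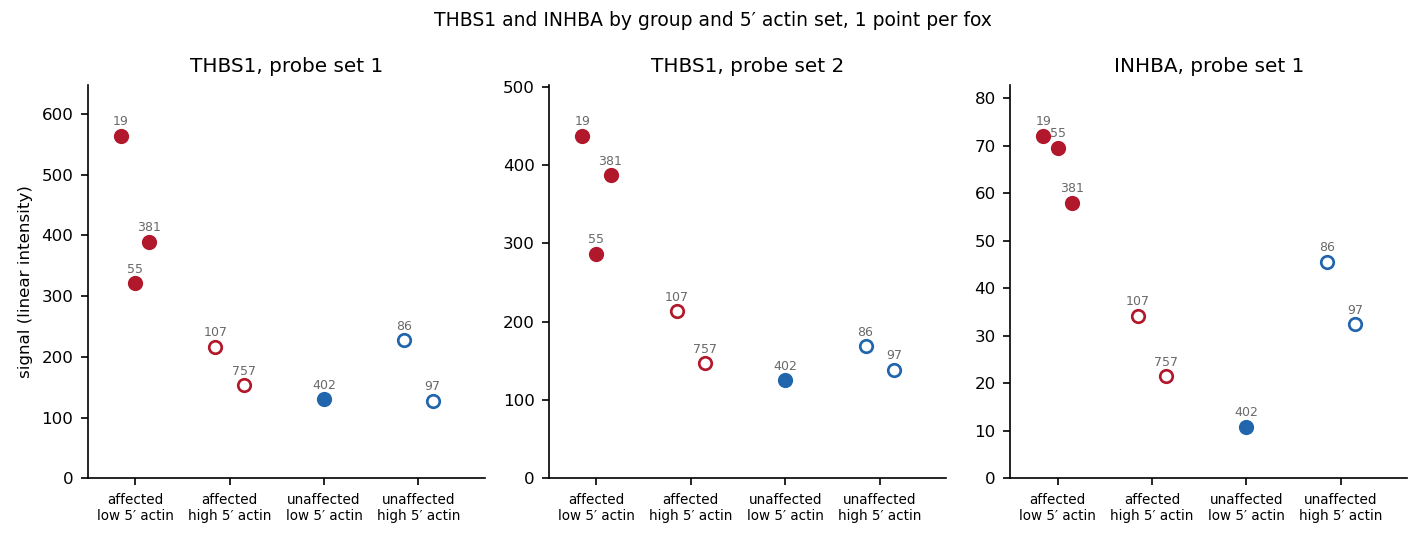
Signal (linear intensity, y axis from 0) of the 2 brighter THBS1 probe sets and of INHBA, with foxes set apart by group and by 5′ actin signal, 1 numbered point per fox. In each panel the 3 affected foxes of low 5′ actin are the highest, and the 2 affected foxes of high 5′ actin lie near the unaffected foxes.

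The receptors did not differ beyond the spread between foxes. TGFBR1, the type I receptor kinase that phosphorylates SMAD2 and SMAD3, read 69.7, 46.0, 91.9, 33.5 and 125 in affected foxes 19, 55, 107, 381 and 757, against 94.1, 64.8 and 60.1 in unaffected foxes 86, 97 and 402. The affected foxes held both ends of the range, with foxes 107 and 757, of high 5′ actin, above foxes 19, 55 and 381. The difference was -0.077 ± 0.33 (SE), at 0.39 within the foxes of high and -0.25 within those of low 5′ actin. It was -0.27 without affected fox 757 and 0.11 without affected fox 381.

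TGFBR2, the type II receptor that first binds the ligand, had 6 probe sets. The leading one read 689, 1239, 1739, 1374 and 1671 in affected foxes 19, 55, 107, 381 and 757, against 2065, 1049.5 and 1101 in unaffected foxes 86, 97 and 402. Unaffected fox 86 was the highest and affected fox 19 the lowest of the 8 foxes in all 6 probe sets. Across the foxes the 6 probe sets correlated with each other at a Pearson r of 0.80 to 0.97 (n = 8 foxes, each read on 1 array for both measures), unlike those of TGFB2, at -0.037, and of THBS1, at -0.33 to 0.97.

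The TGFBR2 means were 1342 ± 419 in affected against 1405 ± 572 in unaffected foxes (mean ± SD, n = 5 and n = 3) for the leading probe set, a difference of -0.063 ± 0.33 (SE). The 6 differences ran from -0.24 to 0.058. Without unaffected fox 86 they were 0.25, 0.48, 0.31, 0.085, 0.084 and 0.21 from the brightest to the dimmest probe set, so the direction turned in 5 of them. The order of the 8 foxes in the leading TGFBR2 probe set was the same as that of the summed plasma cell markers JCHAIN, CD79A and XBP1, highest in unaffected fox 86 and lowest in affected fox 19. That order was not kept by all 6 probe sets, where the place of affected fox 55 ran from 2 to 6. Across foxes the leading TGFBR2 probe set correlated with the plasma cell sum at a Pearson r of 0.95, with T cell markers at 0.92, platelet markers at 0.91 and endothelial markers at 0.85 (n = 8 foxes, each read on 1 array for both measures). The match of order was singled out among 110 pairs of a member and a marker list after their values were seen, and its part in the result was not tested. The plasma cell sum was 3431 to 13998 in affected, against 3915 to 17411 in unaffected foxes.

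**Figure D3:**
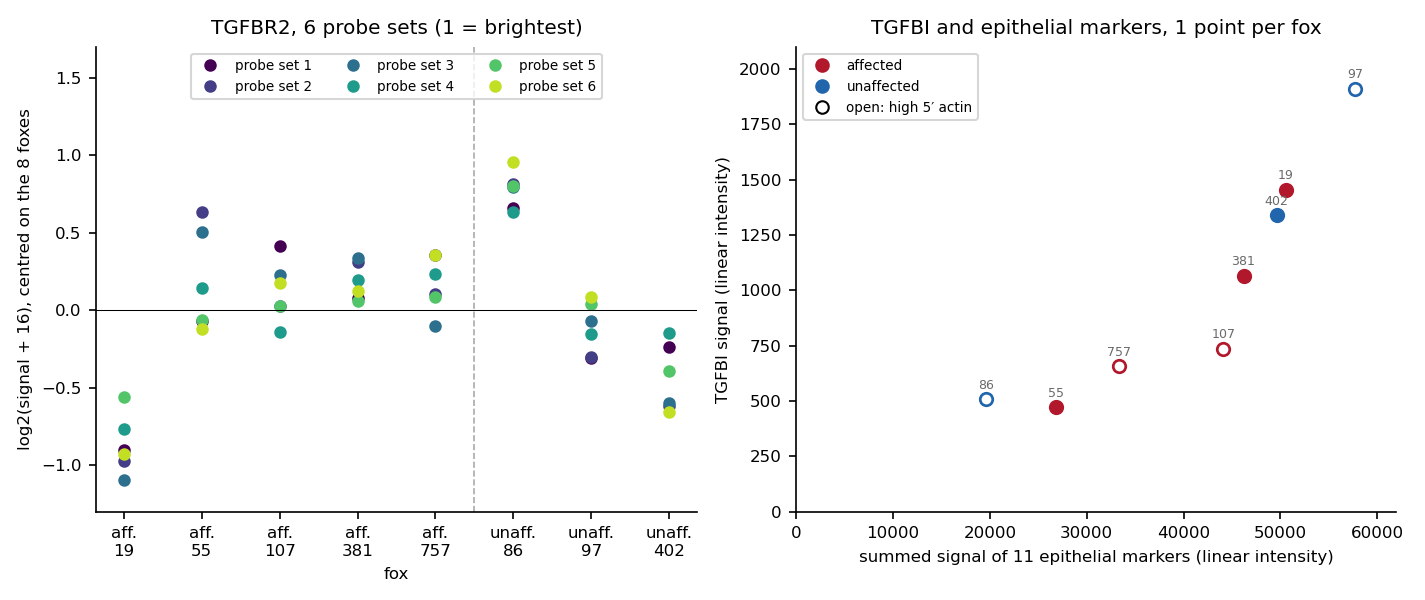
Left, log2(signal + 16) of the 6 TGFBR2 probe sets, each centred on the 8 foxes, by fox, with affected foxes left of the dashed line; unaffected fox 86 is highest and affected fox 19 lowest in all 6. Right, TGFBI signal against the summed signal of 11 epithelial markers (both linear intensity), 1 numbered point per fox, where unaffected fox 97 is highest on both axes.

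The fibrosis genes had lower means in affected foxes, each within the spread between foxes. CCN2, connective tissue growth factor, is a matrix protein induced by TGF-beta in fibroblasts. It read 117, 102, 259.5, 168 and 91.9 in affected foxes 19, 55, 107, 381 and 757, against 159.6, 206 and 167 in unaffected foxes 86, 97 and 402. Unaffected foxes lay close together inside the affected range. The means were 148 ± 69.0 in affected against 178 ± 25.2 in unaffected foxes (mean ± SD, n = 5 and n = 3), a difference of -0.32 ± 0.30 (SE; limma unadjusted p = 0.303).

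The dimmer CCN2 probe set, left out by the filter, read 1.75, 2.11, 28.6, 14.1 and 11.9 in affected foxes 19, 55, 107, 381 and 757, against 27.4, 20.1 and 23.6 in unaffected foxes 86, 97 and 402. It was at background in 3 of the 5 affected foxes and in 0 of the 3 unaffected foxes. Affected fox 107 was the highest in both CCN2 probe sets. The leading probe set kept its direction within the foxes of high and low 5′ actin, at -0.20 and -0.36, and over the fits without 1 fox, at -0.54 without affected fox 107 to -0.20 without affected fox 757.

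TGFBI is a secreted adhesion protein named for its induction by TGF-beta. It read 1455, 473, 737, 1066 and 658 in affected foxes 19, 55, 107, 381 and 757, against 509.5, 1912 and 1339 in unaffected foxes 86, 97 and 402. It had, with THBS1, the widest spread over the 8 foxes of the 10 leading probe sets, an SD of 0.73 on the log2 scale for both, and both groups held high and low foxes. The means were 878 ± 387 in affected against 1254 ± 705 in unaffected foxes (mean ± SD, n = 5 and n = 3), a difference of -0.42 ± 0.45 (SE; limma unadjusted p = 0.373). That difference was -0.96 without unaffected fox 86 and -0.023 without unaffected fox 97.

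The order of the foxes in TGFBI followed that of the summed epithelial markers, which was highest in unaffected fox 97, followed by affected fox 19 and then unaffected fox 402. In 6 of the 8 foxes the place was the same, and only affected fox 55 and unaffected fox 86, the lowest for both, changed places. This match too was singled out among the 110 pairs after their values were seen. KRT76 and KRT13 were the brightest markers in the sum, at means of 11219 and 9153 in affected foxes. Single markers did not all share the order: affected fox 19, second for the sum, was the lowest for EPCAM, at 1278. Across foxes the log2 values of TGFBI and of the epithelial sum correlated at a Pearson r of 0.90, against -0.89 with both macrophage and T cell markers (n = 8 foxes, each read on 1 array for both measures). The epithelial score, the mean of centred log2 values, is another measure than this sum. It was highest in affected fox 19, at 0.93, against 0.45 in unaffected fox 97. With that score as a covariate the TGFBI difference was -0.51. The part of the epithelial markers in the TGFBI result was not tested.

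POSTN, periostin, is a matrix protein of the periodontal ligament and of collagen-rich connective tissue. It read 393, 151, 363, 263 and 285 in affected foxes 19, 55, 107, 381 and 757, against 545, 227 and 421 in unaffected foxes 86, 97 and 402. All 5 affected foxes lay below the 2 higher unaffected foxes, and 4 of them lay above unaffected fox 97. The means were 291 ± 94.8 in affected against 398 ± 161 in unaffected foxes (mean ± SD, n = 5 and n = 3; difference -0.41 ± 0.34, SE; limma unadjusted p = 0.256). Within the foxes of high and low 5′ actin the POSTN difference was -0.13 and -0.71. It was -0.15 without unaffected fox 86 and -0.75 without unaffected fox 97. Unaffected fox 86, highest for POSTN, was also the highest for fibroblast markers, while unaffected fox 402, second for POSTN, was the lowest for them.

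Of the 10 leading probe sets, INHBA, THBS1, CCN2, TGFBI and POSTN kept their direction in each fit without 1 fox, and 5 did not. TGFB1, TGFB2, THBS1, CCN2, TGFBI and POSTN had 1 direction in all 8 foxes and within each actin set.

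**Figure D4:**
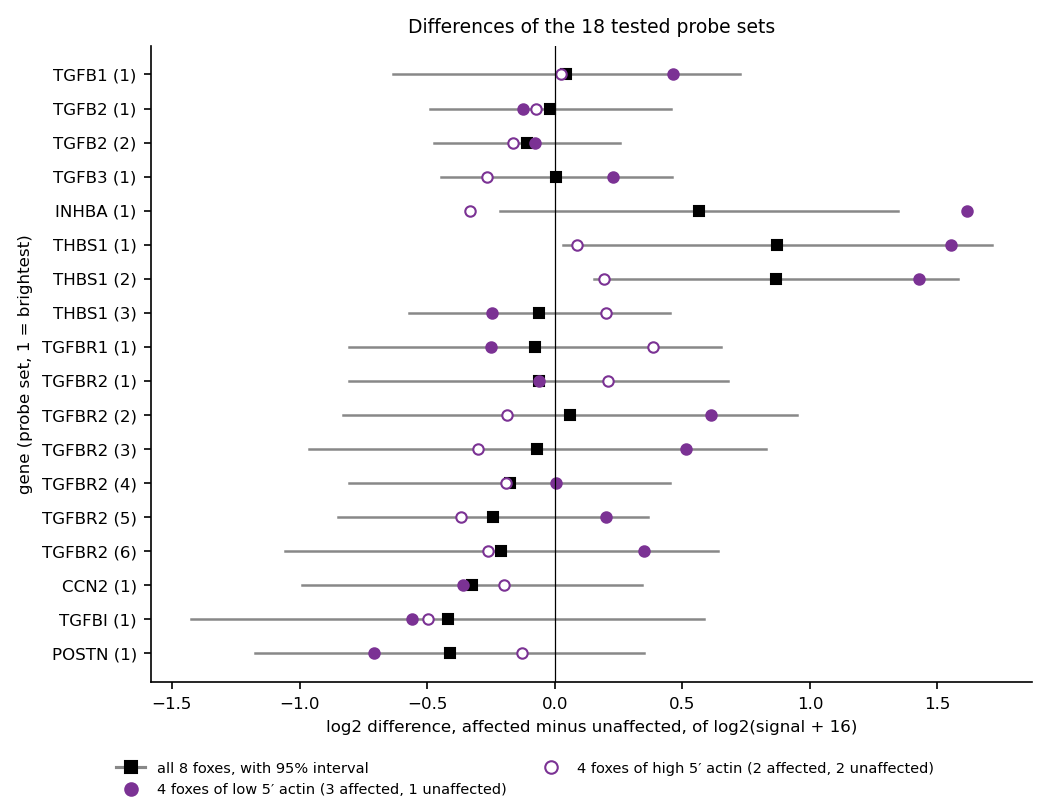
Log2 differences, affected minus unaffected, of the 18 tested probe sets (probe set 1 is the brightest of its gene), with squares and 95% intervals for all 8 foxes, filled circles for the 4 foxes of low and open circles for the 4 foxes of high 5′ actin. Of the 18 intervals only those of the 2 brighter THBS1 probe sets leave out 0, and there the filled circles lie at 1.55 and 1.43 and the open ones at 0.088 and 0.19.

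Sex was the other label that differed between foxes. With a term for the disease group, 0 of the 18 probe sets passed an adjusted p of 0.05 in limma between males and females, where 0.00388% of all tested probe sets were higher in males and 0% lower, and 0 of the 18 had an unadjusted p under 0.05, where 1.58% were higher in males and 0.714% lower (2.29% in either direction). INHBA came nearest, at 50.8 ± 19.0 in males (SD, n = 5) and 30.1 ± 24.7 in females (SD, n = 3), a difference of 0.66 ± 0.30 (SE; limma unadjusted p = 0.0554).

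The disease difference of females was set against that of males as an interaction, with 1 unaffected female. At an unadjusted p under 0.05, 1 of the 18 was higher and 0 lower, where 1.75% and 0.718% of all tested probe sets were (2.47% in either direction), and 0 of the 18 passed an adjusted p of 0.05, as did 0% of all in both directions. That probe set was the dimmest of TGFBR2, where the disease difference was 0.90 in females and -0.82 in males (interaction 1.71 ± 0.66, SE; limma unadjusted p = 0.0317). All 6 TGFBR2 probe sets ran this way, with 0.36 to 0.90 in females and -0.82 to -0.36 in males, as did TGFB1, at 0.80 in females and -0.36 in males. For TGFBR2 unaffected fox 86, a male, and unaffected fox 402, the 1 female, lay at opposite ends of the unaffected group in 4 of the 6 probe sets. THBS1 differed by 0.84 in females and 0.93 in males on the leading probe set.

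The rest of the pathway was read through 7 lists of 129 further gene symbols, of which 117 were named on the array and 90 were tested. ZFYVE9 was also listed under its other symbol, SARA. Of the 90, 0 passed an adjusted p of 0.05 in limma (adjusted p = 0.9999 for each), 2 were higher and 0 lower at an unadjusted p under 0.05, against the 1.16% and 1.53% given above, and 42 had higher and 48 lower means in affected foxes. For the 27 genes named from these lists, leaving out 1 fox moved the difference by over 1.5 times in 27 and turned its direction in 3. The median difference of the 90 was -0.020, against -0.037 over all tested probe sets.

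In storage and activation, 0 of 12 tested genes had an unadjusted p under 0.05 (median -0.020). LTBP1, which anchors latent TGF-beta in the matrix, read 81.6 ± 40.2 in affected against 57.5 ± 33.0 in unaffected foxes (mean ± SD, n = 5 and n = 3; difference 0.40 ± 0.36, SE), with -0.11 and 1.04 within the foxes of high and low 5′ actin. ITGB5, an integrin beta chain, differed by 0.26 ± 0.21, and by 0.087 to 0.099 on its 3 other tested probe sets. LTBP2, a microfibril protein of the same family, differed by -0.59 ± 0.36 while its second probe set differed by 0.46, and MMP14, a membrane-bound protease, by -0.31 ± 0.22.

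Among co-receptors and ligand traps 1 of 9 had an unadjusted p under 0.05 (median 0.022). It was LRG1, a leucine-rich glycoprotein that is also carried in neutrophil granules, at 45.1 ± 16.4 in affected against 21.1 ± 14.6 in unaffected foxes (mean ± SD, n = 5 and n = 3; difference 0.76 ± 0.31, SE), with 1 unaffected fox at background, unaffected fox 97, without which it was 0.41. The LRG1 difference was 0.94 and 0.28 within the foxes of high and low 5′ actin, and 1.28 and 0.36 with an offset of 1 and of 64 in place of 16. Of the neutrophil markers 6 of 6 tested genes had higher means in affected foxes, where 43.5% of all tested probe sets were higher. At an unadjusted p under 0.05, 3 of the 6 were higher, against 1.16% of all tested probe sets. Those 3, also singled out after their values were seen, were the granule proteins LCN2, LTF and MMP9, with differences of 1.44, 1.28 and 1.23. For LCN2 and MMP9 the groups did not overlap, as in 0.916% of all tested probe sets with affected foxes higher. S100A8 and S100A9, which make up most of the summed neutrophil signal, differed by 0.060 and 0.096. The sum was 25717 to 30868 in affected, against 25388 to 29057 in unaffected foxes, and the part of these markers in the LRG1 value was not tested. CD109, a membrane protein that binds TGF-beta, differed by 0.43 ± 0.35, or -0.022 without unaffected fox 86. ASPN, a proteoglycan that binds TGF-beta, differed by -0.35 ± 0.41, or -0.0029 without unaffected fox 86. TGFBR3, which is the co-receptor betaglycan, differed by -0.27 ± 0.25, and by -0.11 and -0.056 on its 2 other tested probe sets.

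Of the SMADs and their partners 0 of 9 had an unadjusted p under 0.05 (median -0.082). DAB2, an endocytic adaptor, and ZFYVE9, which holds SMAD2 near the receptor, differed by 0.49 ± 0.52 and 0.22 ± 0.21 (SE). STRAP, a receptor-associated protein, and SMAD2 differed by -0.58 ± 0.49 and -0.16 ± 0.17. DAB2 was carried by affected fox 19 and differed by 0.13 without that fox, and its second probe set differed by -0.20. STRAP turned with the actin set, at 0.35 within the foxes of high and -1.25 within those of low 5′ actin.

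Of the inhibitors and feedback genes 1 of 13 had an unadjusted p under 0.05 (median 0.018). It was PMEPA1, a membrane protein that is induced by TGF-beta and sequesters SMADs, at 459 ± 173 in affected against 264 ± 103 in unaffected foxes (mean ± SD, n = 5 and n = 3; difference 0.76 ± 0.33, SE). It differed alike within the foxes of high and low 5′ actin, by 0.80 and 0.72, and by 0.48 without unaffected fox 97, while its 2 other tested probe sets differed by 0.0041 and 0.083. NEDD4L, a ubiquitin ligase of SMADs, differed by 0.44 ± 0.31, and by 0.083 on its other tested probe set. BAMBI, a decoy receptor, differed by -0.41 ± 0.37, and SKI, a SMAD repressor, by -0.24 ± 0.22.

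In the activin arm 0 of 6 had an unadjusted p under 0.05 (median -0.087). FST, follistatin, which traps activin, differed by 0.32 ± 0.33 (SE) and the receptor ACVR2A by 0.15 ± 0.18. FST was at 0.17 without affected fox 107 and ACVR2A at 0.015 without unaffected fox 86. INHBE, another activin subunit, and the receptor ACVR1 differed by -0.61 ± 0.34 and -0.25 ± 0.18.

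Of the target and fibrosis genes 0 of 27 had an unadjusted p under 0.05 (median 0.040, with 14 higher and 13 lower means). CCN1, a matrix protein of the CCN2 family, read 3683 ± 1335 in affected against 2474 ± 614 in unaffected foxes (mean ± SD, n = 5 and n = 3; difference 0.52 ± 0.33, SE), and its second probe set differed by 0.55. TIMP1, a metalloproteinase inhibitor, differed by 0.37 ± 0.28, or 0.105 without unaffected fox 402, and ID3 and JUNB, transcription regulators, by -0.58 ± 0.39 and -0.47 ± 0.43. The other tested ID3 probe set differed by -0.22, and JUNB differed by -0.0039 without unaffected fox 97. The list median was 0.38 when unaffected fox 86 was left out and -0.20 when unaffected fox 402 was.

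Targets of YAP and TAZ, coactivators that also drive CCN2, had 0 of 16 with an unadjusted p under 0.05 (median -0.024). CCN1, in this list too, and MYOF, a membrane repair protein, had higher means, MYOF by 0.25 ± 0.19 (SE). NT5E, an ectonucleotidase, and NUAK2, a kinase, differed by -0.35 ± 0.37 and -0.31 ± 0.30. Without unaffected fox 97 they were at 0.080 and -0.028.

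**Figure D5:**
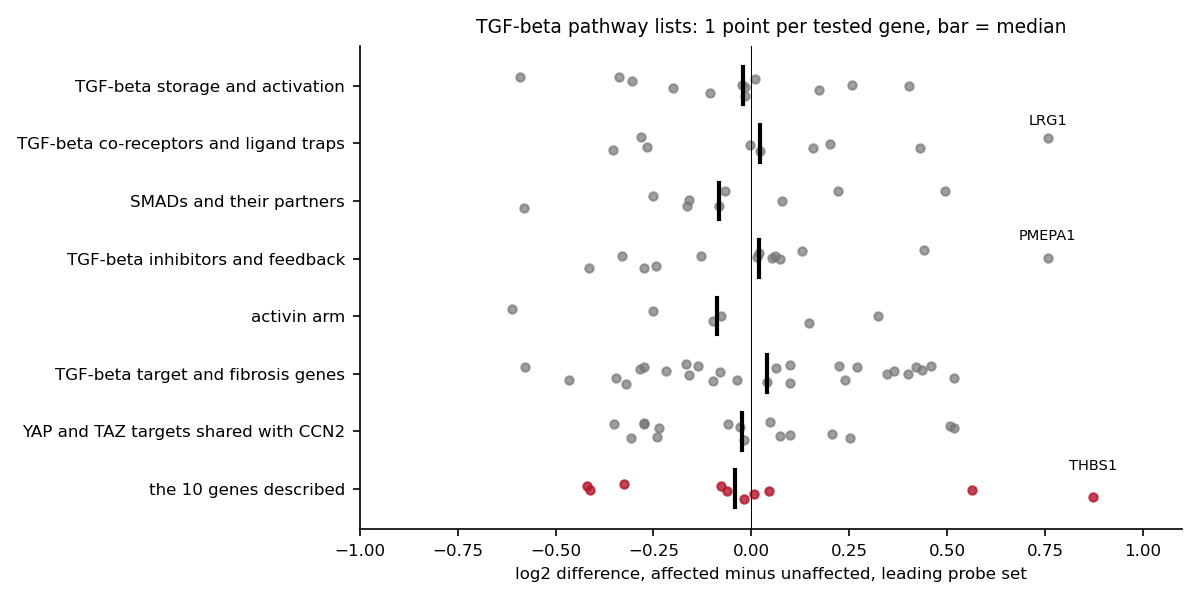
Log2 difference, affected minus unaffected, of the leading probe set of each tested gene in the 7 pathway lists (grey) and of the 10 genes described (red), with the bar at each list's median; named points have an unadjusted p under 0.05. List medians lie between -0.087 and 0.040, and LRG1, PMEPA1 and THBS1 lie farthest to the right.

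The genes most like the 3 most variable members over the 8 foxes were looked up among 10519 others by Pearson r, as a description with no test. For TGFBI, where 90 genes had an r above 0.9, these were NECTIN4 (r = 0.98), SLC25A43 (r = 0.98) and NUAK2 (r = 0.98), the last a member of the YAP and TAZ list. For THBS1, where 7 did, they were SOX5 (r = 0.98), CD164L2 (r = 0.93) and CRY1 (r = 0.93). For INHBA, where 9 did, they were SFXN4 (r = 0.97), TRIM17 (r = 0.95) and MPP6 (r = 0.94). All genes of a fox were read on 1 array from 1 piece of gum.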

How the data were processed

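Gingival RNA of 8 foxes, 5 affected and 3 unaffected, was labelled and hybridised to Affymetrix Canine 2 arrays. For each array the authors deposited a linear intensity of every probe set, the MAS5 signal per the submitters' processing notes, with no version or detection call in the sources read here. The mean intensity trimmed by 2% at each end was 150.0 on every deposited array.

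Symbols came from GEO's platform annotation, from probe sets with 1 symbol alone (29254 of 42924). The 40% of non-control probe sets with the lowest mean linear signal were left out, and the rest were fitted as log2(signal + 16). Groups, sex and their interaction were fitted with limma 3.58.1 in R 4.3.3 (lmFit, eBayes, Benjamini-Hochberg over all 25754 probe sets) and checked on simulated data. Background was the 95th percentile of 42 bacterial control probe sets per array. A marker sum adds the leading probe sets' signals; the epithelial score is the mean of centred log2 values. The number of arrays limits the precision. Named were all members and, per list and direction, the 2 tested genes with the smallest p; likeness took the 3 members with the largest SD. Members and lists were chosen with earlier results of these data known.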

Additional observations from a re-analysis of the deposited data

Results flagged for a closer look

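One member value stood apart within the 5 affected foxes. On the fifth-brightest TGFBR2 probe set affected fox 19 read 61.3, while the other 4 affected foxes read 93.5 to 105, and its gap to the nearest of them was 0.777 of the range of the group on the log2(signal + 16) scale, above Dixon's critical value of 0.71 for 5 samples. About 1 group in 20 exceeds that value by chance, and 18 probe sets were looked at. Fox 19 was the lowest of the 8 foxes in the other TGFBR2 probe sets too.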

How the results depend on the processing

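No tested member or other named gene passed an adjusted p of 0.05 in limma under any alternative run (lowest adjusted p 0.955), and over all probe sets the calls were 0 in each. The alternatives covered the offset, quantile normalization, the filter, covariates for sex, actin ratio and epithelial score, males alone, array weights, the prior, 1 probe set per gene and a threshold of 0.1. The fits within the actin sets were added after seeing the data. No paired analysis was possible because the fox numbers are not shared between groups.

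These differences turned direction relative to all 8 foxes under an alternative. With quantile normalization TGFB2 was 0.055. With the actin ratio as a covariate TGFB3 was -0.12, the third THBS1 probe set 0.071, TGFBR1 0.25, JUNB 0.00052, and TGFBR2 0.16, 0.020 and 0.065 on its brightest, the third and the sixth probe sets. In males alone TGFB1 was -0.36, TGFB2 0.23, TGFB3 -0.0034 and the second TGFBR2 probe set -0.36. With array weights TGFB3 was -0.100, the third THBS1 probe set 0.11, TGFBR1 0.081, and TGFBR2 0.19, 0.14 and 0.044 on its brightest, the third and the sixth. Within the foxes of high 5′ actin TGFB3 was -0.26, INHBA -0.33, the third THBS1 probe set 0.20, TGFBR1 0.39, TGFBR2 0.21 and -0.19 on its brightest 2, LTBP1 -0.11, STRAP 0.35 and SKI 0.018. Within those of low 5′ actin TGFBR2 was 0.51, 0.0056, 0.20 and 0.35 on the third to the sixth, and ACVR2A -0.11. The cause was not tested.

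Leaving out 1 fox gave ranges across 0 of -0.26 to 0.26 for TGFB1, -0.15 to 0.090 and -0.23 to 0.0078 for TGFB2, -0.100 to 0.11 for TGFB3, -0.28 to 0.15 for the third THBS1 probe set, -0.27 to 0.11 for TGFBR1, -0.022 to 0.68 for CD109, -0.68 to 0.0074 for BAMBI and -0.80 to 0.080 for NT5E. For TGFBR2 they were -0.24 to 0.25, -0.23 to 0.48, -0.39 to 0.31, -0.31 to 0.085, -0.51 to 0.084 and -0.60 to 0.21. With an offset of 1 and of 64 INHBA differed by 0.84 and 0.29. With an offset of 64 the median of the target and fibrosis genes was -0.026, and with an offset of 1 that of the YAP and TAZ targets was 0.0047. Over all alternatives other than leaving out 1 fox, the medians of all 7 lists ran across 0. Storage and activation ran from -0.28 to 0.0995, co-receptors and traps from -0.22 to 0.22, and SMADs from -0.12 to 0.069. Inhibitors ran from -0.076 to 0.12, and the activin arm from -0.26 to 0.16. Target and fibrosis genes ran from -0.25 to 0.28, and YAP and TAZ targets from -0.085 to 0.11.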
